A study of Homo sapiens with 12 samples.

Results

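RNA was compared between NCI-H520 cells given ML355 and those given DMSO. NCI-H520 derives from a squamous carcinoma of the human lung, and its cells stably carried L1-FGGY from a lentivirus (OV-L1-FGGY). ML355 is an inhibitor of 12-lipoxygenase (12-LOX), given at 10 μM, and the control cells received 0.2% DMSO. Whether the cells with ML355 received the same amount of DMSO is not given. In both groups the medium was exchanged 5 h after seeding, and the length of the exposure is not given in the sources used here. The libraries were chosen by their labels: 3 of OV-L1-FGGY with DMSO and 3 of OV-L1-FGGY with ML355, 6 of the 12 libraries of the series. Of 58302 genes in the deposited table of read counts, 14841 passed a filter on low counts and were tested. Both groups carry the lentivirus, so that no library of this comparison lacks L1-FGGY, and whether the cells descend from 1 clone is not stated. The labels do not say that the replicates were separate cultures, and the p-values then measure only the spread between these libraries.

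12-LOX oxidizes arachidonic acid, which phospholipases release from membranes, to 12-HPETE and on to 12-HETE, a lipid that acts on cells through the receptor GPR31. Cells answer damage to their organelles or proteins through a small set of transcriptional programmes. The integrated stress response raises ATF4 and its targets when protein synthesis is slowed. The unfolded protein response raises the chaperones of the endoplasmic reticulum (ER), the heat shock response raises those of the cytosol, and damage signals raise genes of cell-cycle arrest and cell death. Mitochondria keep their own small genome, which encodes subunits of the respiratory chain and the RNAs of the mitochondrial ribosome.

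The libraries held between 16242082 and 21011535 counts, and 3 counts, the least on which a level is read here, corresponded to 0.154 to 0.177 CPM (read counts scaled to equal library totals). Within a group the libraries correlated at 0.983 or more across genes (Pearson, log2 CPM), and between groups at 0.896 to 0.910. Of the variance, 84.2% lay on a first principal component that separated the groups. A second, with 5.50%, set ML355 replicate 2 apart from replicate 3. Defining markers of squamous cells were nearly absent: SOX2 and KRT6A had 0 counts in all 6 libraries, KRT5 had at most 3, and TP63 lay under 1 CPM (0.65, 0.871 and 0.677 CPM with DMSO and 0.41, 0.216 and 0.0542 CPM with ML355). Of the 14 squamous markers examined, 7 had at most 3 counts in every library, while KRT17 and TRIM29 were plentiful. Markers of adenocarcinoma and neuroendocrine cells were at or near the floor, with 6 of 8 and 4 of 8 at most 3 counts.

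After ML355, 8210 genes (55.3% of those tested) passed an edgeR adjusted p under 0.01, 4091 of them higher (27.6%) and 4119 lower (27.8%). Counts of list members below are to be read against these shares. The median log2 fold change lay within 0.01 of 0 over all genes tested, and the median size was 1.02 among called genes. A change of at least 1 on the log2 scale was seen in 1853 higher and 2378 lower genes, and of at least 3 in 203 higher and 395 lower genes. This median near 0 and the near-even split of the calls depend on the scaling for composition. Without that scaling, the median of all genes moved to -0.14 and the calls split into 3246 higher and 4810 lower. The gene lists used below and their names were set with earlier results of these data known.

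**Figure D1:**
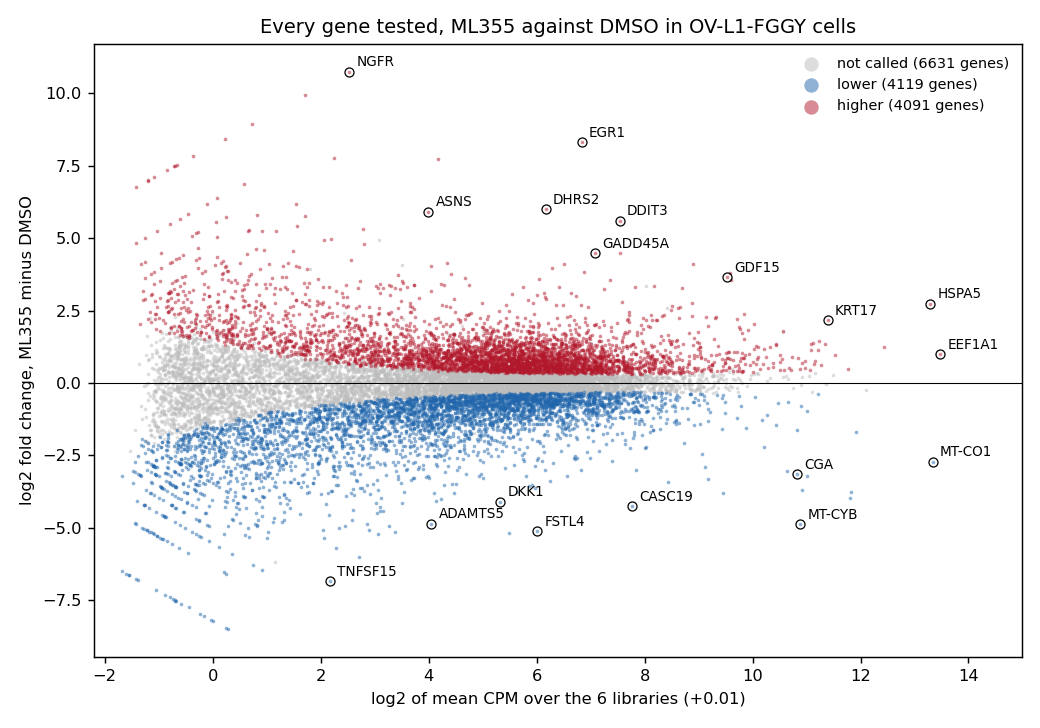
Each point is 1 of 14841 genes, with its mean level over the 6 libraries (log2 CPM) on the horizontal axis and its log2 fold change (ML355 minus DMSO) on the vertical axis. Red points are the 4091 genes called higher, blue points the 4119 called lower and grey points those not called, and changes reach to both sides at every level.

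Among genes with at least 10 counts in every library, the rise of EGR1 was the largest. EGR1, an early transcription factor of mitogen and stress signals, lay at 0.886, 0.653 and 0.625 CPM in the DMSO libraries and 103, 363 and 218 CPM in the ML355 libraries. The groups were far apart, and the ML355 libraries themselves spread over more than a factor of 3 (log2 fold change 8.30 ± 0.81 (SE), edgeR adjusted p = 0.00082). DHRS2, a short-chain dehydrogenase, rose from 1.71, 2.67 and 2.24 CPM to 132, 139 and 155 CPM (log2 fold change 5.99 ± 0.16 (SE), edgeR adjusted p = 5.5e-14). DDIT3, which encodes the stress factor CHOP, followed with 6.20, 7.68 and 8.54 CPM in the DMSO libraries and 450.1, 326 and 318 CPM in the ML355 libraries (log2 fold change 5.6 ± 0.17 (SE), edgeR adjusted p = 1.7e-12). Both genes were low with DMSO and well expressed in each ML355 library. A single signed number in brackets after a gene is its log2 fold change, ML355 minus DMSO. The other large rises were the histone gene H2BC21 (4.50), GADD45A of DNA damage signalling (4.48), G0S2, an inhibitor of lipolysis (4.13), and PPP1R15A, the phosphatase subunit that reverses eIF2α phosphorylation (4.11). SLC44A2, a choline transporter (4.11), the phosphatase gene DUSP15 (4.03) and BBC3, the cell death gene PUMA (3.97), completed the 10.

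On the falling side PPP1R10, a nuclear regulator of protein phosphatase 1, went from 78.9, 88.4 and 95.6 CPM to 2.10, 3.34 and 1.79 CPM (log2 fold change -5.18 ± 0.18 (SE), edgeR adjusted p = 1.7e-12). FSTL4, a secreted follistatin-like protein, showed 127, 120.1 and 129 CPM with DMSO and 4.30, 2.80 and 3.74 CPM with ML355 (log2 fold change -5.11 ± 0.15 (SE), edgeR adjusted p = 1.6e-13). Both fell in every ML355 library to a few CPM, and the groups did not overlap. ADAMTS5, a matrix protease (-4.86), NTSR1, the receptor of neurotensin (-4.47), and CEMIP, a hyaluronan-binding protein (-4.42), fell by a similar size. So did LCMT2 (-4.41) and MOCS3 (-4.28), which act in the modification of transfer RNA, the long non-coding RNA CASC19 (-4.26) and the phosphodiesterase gene PDE7B (-4.15). CASC19 was the most abundant of these non-mitochondrial genes, at 427, 374 and 438 CPM in the DMSO libraries and 21, 22.7 and 21 CPM in the ML355 libraries.

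Several genes had at most 3 counts in every library of 1 group. NGFR, the low-affinity neurotrophin receptor, had 0 counts in each DMSO library and 180, 253 and 216 counts in the ML355 libraries, at least 69.6-fold higher against a floor of 3 counts per library. SPRR2D, a small proline-rich protein of the cornified envelope, had 0 counts with DMSO and 151, 109 and 112 with ML355, at least 39.6-fold higher. CSF2, the cytokine GM-CSF, had 3 counts in all with DMSO and 196 with ML355, a ratio of 63.0 (exact 95% interval 21.2 to 308). KLF3-AS1, an antisense RNA, went from 3, 1 and 2 counts to 77, 37 and 246. It lost its call without any 1 of the DMSO libraries (edgeR adjusted p = 0.018 to 0.030). DPYSL3, a cytoskeletal protein of neurons, went from 7 counts in all to 123 (ratio 16.9, exact 95% interval 7.98 to 43.0). In the other direction TNFSF15, a cytokine of the TNF family, went from 150, 184 and 151 counts to 2, 1 and 1. Its ratio of DMSO to ML355 was 126 (exact 95% interval 48.8 to 463). MS4A7 went from 202 counts to 2, LINC01559 from 180 to 2, TTC30B, a subunit of ciliary transport, from 168 to 4, and ZNF467 from 165 to 5. These intervals and floors cover counting error only, and whether reads were counted by strand is not stated, which bears on the antisense RNA.

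The study's own genes moved in different directions. ALOX12, which encodes the enzyme that ML355 inhibits, was weakly expressed, at 1.00, 0.599 and 0.729 CPM in the DMSO libraries and 3.74, 2.70 and 2.71 CPM in the ML355 libraries. It rose (log2 fold change 1.97 ± 0.35 (SE), edgeR adjusted p = 9.7e-05) and the groups did not overlap. ALOX5, the 5-lipoxygenase, lay at 1.65, 1.52 and 2.34 CPM with DMSO and 1.13, 0.809 and 0.488 CPM with ML355 and was not called (edgeR adjusted p = 0.018), although it passed with library size alone (edgeR adjusted p = 0.0087). ALOX15 had at most 8 counts in any library and GPR31 had 0 in all 6, so that no difference in either was detectable at this depth. The related lipoxygenase gene ALOX15B, also with few counts, went from 17, 16 and 18 counts to 1, 1 and 2 and was called lower. FGGY, whose counts do not separate the construct from the endogenous gene, was at 282, 284 and 323 CPM in the DMSO libraries and 376, 339 and 275 CPM in the ML355 libraries. Its groups overlapped (log2 fold change 0.16 ± 0.12 (SE), edgeR adjusted p = 0.24). USP24, a deubiquitinase, fell from 172, 146 and 164 CPM to 106, 122 and 104 CPM (log2 fold change -0.54 ± 0.10 (SE), edgeR adjusted p = 0.00024).

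Genes of arachidonic acid metabolism as a list leaned downward: 5 of 28 tested members were called higher and 11 lower (median log2 fold change -0.51). PLA2G4A, the cytosolic phospholipase A2 that frees arachidonic acid, was at 371, 328 and 342 CPM in the DMSO libraries and 100.1, 97.1 and 101 CPM in the ML355 libraries (log2 fold change -1.81 ± 0.10 (SE), edgeR adjusted p = 1.1e-10). The cyclooxygenase genes PTGS1 (-1.83) and PTGS2 (-0.98) and the prostaglandin E synthase gene PTGES (-1.28) fell. AKR1C3, a prostaglandin reductase (-1.35), and MBOAT7, which returns arachidonic acid to phosphatidylinositol (-1.22), fell as well. Receptors and later enzymes did not follow 1 direction. CYSLTR1, a leukotriene receptor, fell from 5.79, 4.30 and 5.21 CPM to 0.307, 0.108 and 0.325 CPM (log2 fold change -4.33 ± 0.39 (SE), edgeR adjusted p = 4.3e-08), whereas PTGER4, a prostaglandin E2 receptor (0.85), LTA4H of leukotriene B4 synthesis (0.77), EPHX2, an epoxide hydrolase (1.01), and GPX4, which reduces lipid peroxides (0.81), rose. HPGD, which degrades prostaglandins, went from 33 to 43 counts per DMSO library to at most 1 with ML355.

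Wnt genes also leaned downward, with a divided pathway: 11 of 55 tested members were called higher and 22 lower (median log2 fold change -0.34). Wnt ligands bind Frizzled receptors and release β-catenin from a destruction complex. Among ligands, WNT5A fell from 249, 241 and 241 CPM to 84.7, 89.1 and 79.3 CPM (log2 fold change -1.53 ± 0.10 (SE), edgeR adjusted p = 7e-10), and WNT6 from 8.80, 8.50 and 8.28 CPM to 0.666, 0.539 and 0.704 CPM (log2 fold change -3.73 ± 0.26 (SE), edgeR adjusted p = 2.2e-09). WNT3A had 1 count in all 6 libraries together. The secreted inhibitor DKK1 fell most, at 78.1, 79.7 and 69.2 CPM in the DMSO libraries and 4.92, 3.45 and 4.93 CPM in the ML355 libraries (log2 fold change -4.09 ± 0.15 (SE), edgeR adjusted p = 1.6e-12). The receptor genes FZD8 (-2.45) and FZD4 (-0.93) fell, and FZD5 (1.68) and FZD10 (0.90) rose. In the destruction complex APC (-2.01) and GSK3B (-0.72) fell, and AXIN1 (1.40) and GSK3A (0.91) rose, as did the Dishevelled genes DVL1 (1.15) and DVL2 (1.22). CTNNB1, which encodes β-catenin, had overlapping groups at 263, 225 and 227 CPM with DMSO and 201, 252 and 231 CPM with ML355 (log2 fold change -0.07 ± 0.11 (SE), edgeR adjusted p = 0.61). The gene TCF4, taken from the study and not a member of the Wnt list, fell (log2 fold change -2.11 ± 0.26 (SE), edgeR adjusted p = 2e-06). TCF7L2, which is also known as TCF4 in Wnt signalling, was only just called (log2 fold change -0.53 ± 0.16 (SE), edgeR adjusted p = 0.0095), and it lost its call without any 1 of the libraries except ML355 replicate 2 (edgeR adjusted p = 0.015 to 0.052). MAPK8, the kinase JNK1, did not pass (0.06, edgeR adjusted p = 0.6).

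RNAs of the mitochondrial genome showed the largest loss of read counts. The 13 mRNAs took 5.78% ± 0.356 of all counts with DMSO and 0.728% ± 0.0956 with ML355 (SD, n = 3), whereas the 2 ribosomal RNAs took 0.402% ± 0.0158 and 0.827% ± 0.0208. Each of the 13 mRNAs was called lower, with a median log2 fold change of -3.22, and both ribosomal RNAs were called higher. MT-CO1, a cytochrome oxidase subunit and the most abundant of them, was at 17668, 17249.5 and 19069 CPM in the DMSO libraries and 2935, 2957 and 2294 CPM in the ML355 libraries (log2 fold change -2.72 ± 0.14 (SE), edgeR adjusted p = 8.7e-11). MT-CYB, the cytochrome b of complex III, fell most, from 3929, 3276 and 3788 CPM to 96.6, 118 and 158 CPM (log2 fold change -4.88 ± 0.18 (SE), edgeR adjusted p = 7.5e-12). Both genes were lower in every ML355 library, without overlap. MT-CO2 (-3.96), MT-CO3 (-3.77) and MT-ATP6 (-3.69) followed, then the complex I subunits MT-ND3 (-3.30), MT-ND1 (-3.22), MT-ND2 (-3.05) and MT-ND4L (-2.44). MT-ATP8, a short subunit of the ATP synthase, went from 17 to 22 counts per DMSO library to at most 2 with ML355.

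The smallest falls were those of MT-ND4 (-1.70), MT-ND5 (-1.56) and MT-ND6 (-1.24), the last being the mRNA of the opposite strand. Whether reads were counted by strand is not stated, so that the level of MT-ND6 may include reads of the other strand. The ribosomal RNA MT-RNR2 lay at 3273, 3185 and 3471 CPM in the DMSO libraries and 8285, 7412 and 7507 CPM in the ML355 libraries (log2 fold change 1.22 ± 0.12 (SE), edgeR adjusted p = 1.4e-07). MT-RNR1 lay at 485, 555 and 536 CPM with DMSO and 868, 758 and 1254 CPM with ML355 (log2 fold change 0.87 ± 0.16 (SE), edgeR adjusted p = 0.00026). Neither overlapped between groups. MT-TP, the transfer RNA of proline, fell (-1.99) and was the only transfer RNA of the 22 that passed the filter.

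**Figure D2:**
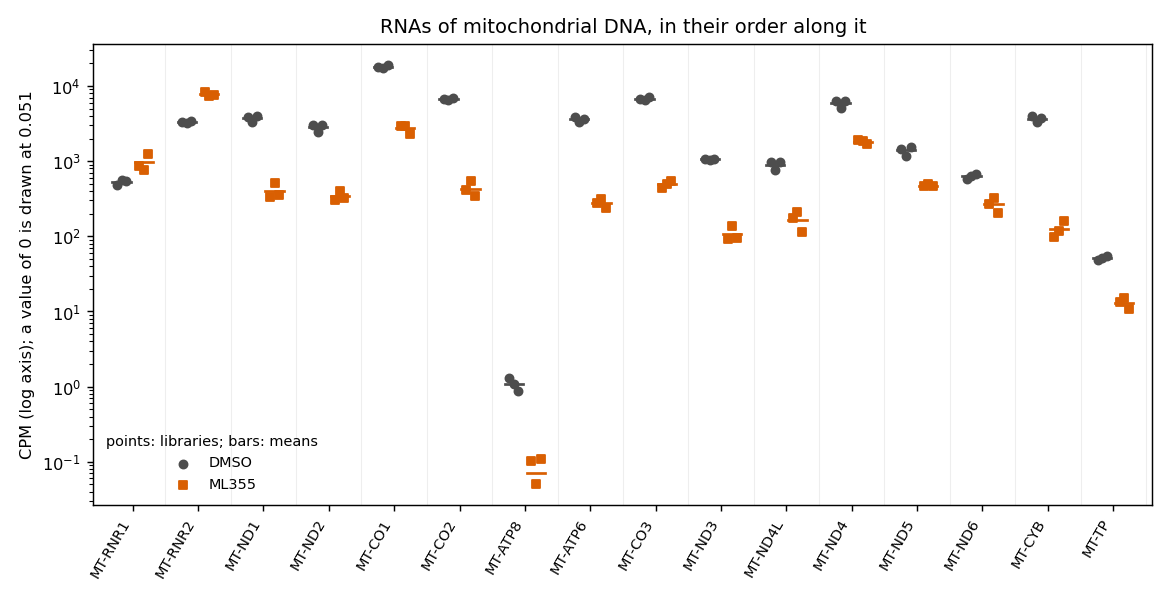
The RNAs of mitochondrial DNA are ordered as they lie along it, with CPM on a log axis; circles are the 3 DMSO libraries, squares the 3 ML355 libraries and short bars their means. The ribosomal RNAs MT-RNR1 and MT-RNR2 are the only ones higher with ML355, and MT-CYB shows the widest gap.

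Nuclear genes that serve mitochondrial gene expression were mixed: 9 of 52 tested members were called higher and 19 lower (median log2 fold change -0.29). TRMT10C, a subunit of the nuclease that frees mitochondrial RNAs from their precursor, fell from 81.6, 73.9 and 74.9 CPM to 20.5, 25.2 and 22.7 CPM (log2 fold change -1.75 ± 0.12 (SE), edgeR adjusted p = 1.4e-09). FASTKD3, an RNA-binding protein of mitochondria, fell (-1.27), and the topoisomerase gene TOP1MT (1.30) and the termination factor MTERF3 (1.24) rose. The enzymes that charge transfer RNAs split by compartment. In the cytosol, 17 of 24 tested members were called higher and 0 lower (median log2 fold change 0.55). With library size alone, 11 cytosolic members were called higher. In mitochondria, 1 of 19 tested members were called higher and 9 lower (median log2 fold change -0.21). AARS1, the cytosolic alanine enzyme, rose (log2 fold change 1.53 ± 0.10 (SE), edgeR adjusted p = 1.3e-09), as did SARS1 (1.56), YARS1 (1.47) and GARS1 (1.25). AARS2, its mitochondrial counterpart, fell (log2 fold change -1.50 ± 0.15 (SE), edgeR adjusted p = 1.2e-07), as did CARS2 (-1.28) and IARS2 (-0.76). In the TCA cycle and at pyruvate entry 13 of 35 tested members were called higher and 7 lower (median log2 fold change 0.16). The pyruvate carboxylase gene PC fell (-1.79) together with DLAT of pyruvate dehydrogenase (-0.85), and PDK4, a kinase that inhibits that complex (1.38), and SUCLG2 (1.07) rose.

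Genes of the integrated stress response mostly rose: 30 of 43 tested members were called higher and 4 lower (median log2 fold change 0.83). ATF4, its central factor, lay at 338, 402 and 398 CPM in the DMSO libraries and 1407, 1254 and 1454 CPM in the ML355 libraries (log2 fold change 1.85 ± 0.12 (SE), edgeR adjusted p = 5.7e-10). ASNS, the asparagine synthetase, lay at 0.295, 0.871 and 0.365 CPM in the DMSO libraries and 29.1, 27 and 38.2 CPM in the ML355 libraries (log2 fold change 5.92 ± 0.27 (SE), edgeR adjusted p = 4.2e-11). ATF3, a repressor of the same family, rose from 27, 23.4 and 25.9 CPM to 293, 308 and 305 CPM (log2 fold change 3.57 ± 0.11 (SE), edgeR adjusted p = 2.1e-13). In all 3 genes each ML355 library was above each DMSO library, and ASNS was barely detected with DMSO. PPP1R15A, the feedback phosphatase subunit, was at 45.4, 48.5 and 61.4 CPM with DMSO and 976, 582 and 1133 CPM with ML355. GDF15, a secreted stress cytokine, rose from 121, 94.9 and 113 CPM to 1339, 1277 and 1496 CPM (log2 fold change 3.64 ± 0.13 (SE), edgeR adjusted p = 9.4e-13). SESN2 (3.31), CHAC1, which degrades glutathione (2.70), NUPR1 (2.84), TRIB3 (1.32), CEBPG (2.0) and the one-carbon enzyme MTHFD2 (2.34) rose too.

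Among the amino acid transporters of this list SLC3A2, the shared heavy chain, rose (2.05), whereas SLC38A2 fell from 2219, 1893 and 2002 CPM to 666, 901 and 650.1 CPM (log2 fold change -1.46 ± 0.13 (SE), edgeR adjusted p = 6.4e-08). SLC7A11, the cystine transporter (-0.98), SLC6A9, a glycine transporter (-1.20), and the serine enzyme gene PSPH (-0.64) fell as well. Of the 4 kinases that can start the response, EIF2AK4 (0.56) and EIF2AK1 (0.41) were called higher. EIF2AK3 (0.27, edgeR adjusted p = 0.076) and EIF2AK2 (0.09, edgeR adjusted p = 0.47) did not pass. EIF2AK1 kept its call only without ML355 replicate 2 or 3 (edgeR adjusted p = 0.010 to 0.018 without each of the other 4 libraries), and lost it with library size alone (0.034).

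ER stress genes rose in part: 14 of 31 tested members were called higher and 2 lower (median log2 fold change 0.24); with library size alone 5 were lower. HSPA5, the ER chaperone BiP, gained more read counts than any other gene, at 2779, 2609.6 and 2419.7 CPM in the DMSO libraries and 19836, 14382 and 18035 CPM in the ML355 libraries (log2 fold change 2.74 ± 0.15 (SE), edgeR adjusted p = 1.2e-10). HERPUD1, of ER-associated degradation, lay at 229, 208 and 224 CPM with DMSO and 1051, 968 and 1184 CPM with ML355 (log2 fold change 2.28 ± 0.11 (SE), edgeR adjusted p = 4.2e-11). Both were higher in every ML355 library by more than a factor of 4. DNAJB9 (1.53), the sensor gene ERN1 (1.39), the chaperone genes HSP90B1 (1.33) and MANF (1.42), and XBP1 (0.74) rose. PDIA4 (0.03, edgeR adjusted p = 0.79), PDIA6 (0.01, edgeR adjusted p = 0.95) and CANX (0.14, edgeR adjusted p = 0.28) did not pass, and CRELD2, also a target of ER stress, fell (log2 fold change -0.97 ± 0.12 (SE), edgeR adjusted p = 1.7e-06).

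The 250 bases before the start of 3 of these genes are shown, because each carries the known response element of its group and was called higher with ML355. They are from RefSeq (GRCh38.p14), read 5′ to 3′ on the gene's strand, with the element in capitals. ASNS (chr7:97872409-97872658, minus strand) holds the amino acid response element TGATGNAA. HSPA5 (chr9:125241344-125241593, minus strand) holds the ER stress response element, which is CCAAT, 9 bases of any kind and CCACG. EGR1 (chr5:138465229-138465478, plus strand) holds the CArG box bound by serum response factor, 2 times.
ASNS: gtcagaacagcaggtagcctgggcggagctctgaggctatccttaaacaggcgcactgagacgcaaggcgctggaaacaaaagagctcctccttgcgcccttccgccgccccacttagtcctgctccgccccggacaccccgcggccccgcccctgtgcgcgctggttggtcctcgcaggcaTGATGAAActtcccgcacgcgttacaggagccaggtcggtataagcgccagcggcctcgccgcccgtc
HSPA5: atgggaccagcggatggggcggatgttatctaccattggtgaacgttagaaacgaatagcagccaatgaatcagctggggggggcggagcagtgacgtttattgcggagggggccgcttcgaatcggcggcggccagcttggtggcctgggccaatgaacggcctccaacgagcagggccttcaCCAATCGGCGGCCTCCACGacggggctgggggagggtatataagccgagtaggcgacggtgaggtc
EGR1: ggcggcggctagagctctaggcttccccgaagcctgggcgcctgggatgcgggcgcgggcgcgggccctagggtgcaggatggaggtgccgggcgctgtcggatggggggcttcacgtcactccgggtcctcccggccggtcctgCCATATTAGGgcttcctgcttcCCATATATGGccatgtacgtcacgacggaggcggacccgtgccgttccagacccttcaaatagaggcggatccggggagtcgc

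Both strands of these 250 bases were searched in the promoters of 27305 gene symbols, using the first start listed for each. The amino acid response element was in 3.19% of all promoters and in 5 of 36 promoters of integrated stress response members, 4 of them called higher (ATF3, CHAC1, ASNS and MTHFD1L). The ER stress element was in 0.0806% of all promoters and in 7 of 27 of the unfolded protein response list. Of those 7 genes, HSPA5, HSP90B1, XBP1 and CALR were called higher, and CRELD2 was called lower. The CArG box was in 1.14% of all promoters and in 2 of 28 of the immediate early list, EGR1 and SRF, both called higher. The cAMP response element TGACGTCA was in 1.77% of all promoters and in 2 of those 28, JUND and MAFF, both called higher. The heat shock element (GAA, TTC and GAA, each 2 bases apart) was in 0.440% of all promoters, in 1 of 17 heat shock members called higher (CHORDC1) and in 3 of 17 other tested members (HSPA6, HSPA8 and DNAJB6). The antioxidant response element TGACNNNGC was in 11.03% of all promoters, in 2 of 6 members of the NRF2 list called higher and in 4 of 16 others. Members called come from tested genes, and the shares differed among the 10653 promoters of tested genes. There they were 1.333% for the amino acid element, 0.1314% for the ER stress element and 0.9575% for the CArG box. The cAMP element was in 2.976%, the heat shock element in 0.3004% and the antioxidant element in 12.3%. A match describes letters in this window and is not a measured binding site.

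Immediate early genes, which growth factors and stress switch on within minutes, had the highest share of rises of all lists with at least 10 tested members: 27 of 35 tested members were called higher and 4 lower (median log2 fold change 1.34). JUN, an AP-1 subunit, lay at 40.5, 41 and 43.5 CPM in the DMSO libraries and 459, 312 and 464 CPM in the ML355 libraries (log2 fold change 3.30 ± 0.14 (SE), edgeR adjusted p = 4.3e-11). FOS, its partner, lay at 3.96, 4.79 and 5.21 CPM with DMSO and 36.4, 60.1 and 51 CPM with ML355 (log2 fold change 3.40 ± 0.19 (SE), edgeR adjusted p = 4e-10). Neither overlapped between groups. ZFP36 (3.83), which destabilizes cytokine mRNAs, BTG2 (3.59), FOSB (2.41), JUNB (2.18), KLF4 (2.16) and KLF10 (1.92) rose as well. MYC fell from 278, 289 and 296 CPM to 156, 129 and 164 CPM (log2 fold change -0.94 ± 0.11 (SE), edgeR adjusted p = 6.3e-07). CCN2 (-0.85) and FOSL2 (-0.68) also fell. In the feedback of MAP kinases 9 of 23 tested members were called higher and 4 lower (median log2 fold change 0.35). The phosphatase genes DUSP1 (2.37), DUSP2 (2.35), DUSP5 (2.26) and DUSP8 (1.71) and the EGFR inhibitor ERRFI1 (1.06) rose. DUSP4 (-0.49), DUSP9 (-1.0) and SPRED1 (-0.94) fell. Ligands of EGFR rose, namely AREG (log2 fold change 2.26 ± 0.16 (SE), edgeR adjusted p = 2.7e-09), HBEGF (1.54), EREG (0.81) and TGFA (0.52). TGFA narrowly lost its call with library size alone (edgeR adjusted p = 0.011). The ligand gene EPGN was not called. The receptor genes EGFR, ERBB2 and ERBB3 (-0.60) were called lower. In the EGFR family 4 of 11 tested members were called higher and 3 lower (median log2 fold change -0.29). Of the 3 members of the EGFR family called lower, 1 was left without DMSO replicate 1 or 3.

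Cytosolic chaperone genes rose unevenly: 20 of 38 tested members were called higher and 5 lower (median log2 fold change 0.55); with library size alone 8 were lower. HSF1, the factor that drives this response, rose from 118, 129 and 125 CPM to 329.6, 250.4 and 319 CPM (log2 fold change 1.27 ± 0.11 (SE), edgeR adjusted p = 3.6e-08), and the co-chaperone genes DNAJB1 (log2 fold change 2.61 ± 0.25 (SE), edgeR adjusted p = 3.9e-05) and DNAJB2 (1.41) rose. HSPA8 (-0.69), HSPA14 (-1.37) and HSPA2 (-2.86) fell. ML355 replicate 2 stood apart from its group in inducible chaperones, which were picked out after their values were seen. HSPA1A, an inducible HSP70, was at 83.9, 104 and 104.8 CPM in the DMSO libraries and 827, 185 and 747 CPM in the ML355 libraries. HSPA1B was at 45.5, 43.5 and 50.9 CPM with DMSO and 639, 144 and 643 CPM with ML355, and HSPA6 at 0.65, 0.218 and 0.729 CPM with DMSO and 21.5, 3.78 and 24 CPM with ML355. In each of these 3 genes replicate 2 was lowest of its group by more than a factor of 4, though above all DMSO libraries. None was called (edgeR adjusted p = 0.024, 0.013 and 0.011). Each was called without ML355 replicate 2, but the genes were picked for the low value of that library. Calls without it follow from this choice and lend no support to a rise. HSPA1A and HSPA1B are near-identical copies, so that reads may be split between them. FTH1, the ferritin heavy chain, lay at 609.7, 589.6 and 846 CPM with DMSO and 2072, 1224 and 3704 CPM with ML355, with replicate 3 highest and replicate 2 lowest (edgeR adjusted p = 0.024). FTH1 was called without ML355 replicate 2 or replicate 3, the lowest and highest of its group, which lends no support either.

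**Figure D3:**
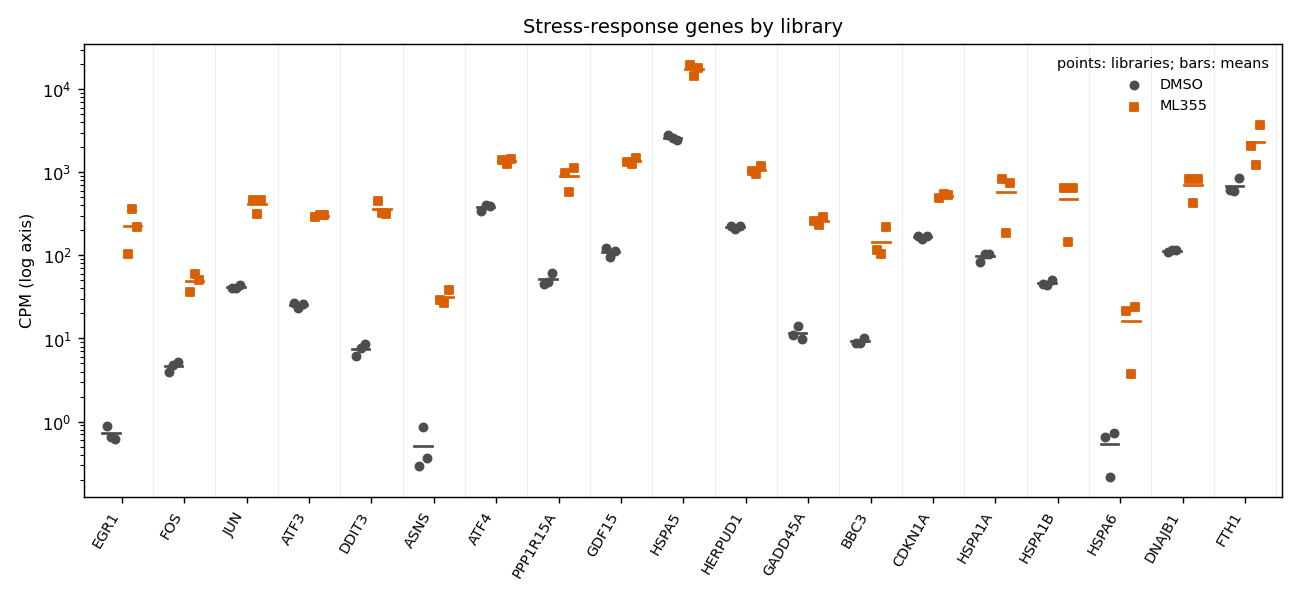
Levels of 19 stress-response genes are shown in CPM on a log axis, with circles for the 3 DMSO libraries, squares for the 3 ML355 libraries and short bars for means. The groups are apart in every gene drawn, and in HSPA1A, HSPA1B and HSPA6 the lowest square is ML355 replicate 2.

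Genes of cell-cycle arrest after damage and of apoptosis mostly rose: 29 of 49 tested members were called higher and 5 lower (median log2 fold change 0.87). GADD45A, of cell-cycle arrest after damage, was at 11, 14.1 and 9.85 CPM in the DMSO libraries and 258, 230.5 and 292 CPM in the ML355 libraries (log2 fold change 4.48 ± 0.15 (SE), edgeR adjusted p = 7.6e-13). CDKN1A, the cell-cycle inhibitor p21, was at 171, 159.6 and 171 CPM with DMSO and 486, 547 and 539 CPM with ML355 (log2 fold change 1.65 ± 0.10 (SE), edgeR adjusted p = 4.4e-10). BBC3 was at 8.74, 8.93 and 10.2 CPM with DMSO and 117, 104 and 217 CPM with ML355 (log2 fold change 3.97 ± 0.33 (SE), edgeR adjusted p = 4.6e-05). All 3 were higher in every ML355 library. PLK3 (2.76), BAK1 (1.80), RRM2B (1.81) and FAS (1.64) rose. So did BIRC3 (2.71), an inhibitor of apoptosis, and MCL1 (0.72), a survival factor. BCL2 (-1.02) and CASP8 (-1.03) fell. Of antioxidant targets of NRF2, 8 of 32 tested members were called higher and 10 lower (median log2 fold change -0.10). The factor's own gene NFE2L2 rose (0.61), and FTL (1.14) and TKT (0.90) with it. AKR1C2 (-2.05), AKR1C1 (-1.92), ABCC2 (-1.52) and NQO1 (-0.57) fell. The 8 rises became 4 without DMSO replicate 1 or 2 or with library size alone. The AKR1C genes are close copies whose reads may be shared.

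Of the proteins of the cytosolic ribosome, 63 of 83 tested members were called higher and 2 lower (median log2 fold change 0.64); in the fit of all 12 libraries, 41 were called higher. They took 6.45% ± 0.498 of counts with DMSO and 9.38% ± 0.958 with ML355 (SD, n = 3). RPL12 lay at 579, 752 and 694 CPM in the DMSO libraries and 2456, 1852 and 2708 CPM in the ML355 libraries (log2 fold change 1.79 ± 0.15 (SE), edgeR adjusted p = 2.6e-08), and RPL22L1, a variant of RPL22, at 14, 17 and 12.7 CPM with DMSO and 152, 104 and 124 CPM with ML355 (log2 fold change 3.12 ± 0.15 (SE), edgeR adjusted p = 8.3e-11). RPL37 (1.45), RPS2 (1.39), RPS27L (1.27) and RPL39L (1.32) rose too. The elongation factor genes EEF1A1 (8018, 7687 and 7105 CPM to 16139, 13367 and 16157 CPM) and EEF2 (1965, 2058 and 2002 CPM to 4403, 3129 and 4151 CPM) were among the 8 largest gains of read counts (1.0 and 0.96). Members of these families have many processed pseudogenes, and 107 of 423 tested processed pseudogenes were called higher and 27 lower. Of the mitochondrial ribosome, 31 of 78 tested members were called higher and 7 lower (median log2 fold change 0.20), with MRPS30 (1.34) and MRPL9 (1.20) higher and MRPS17 (-2.03) and MRPL1 (-1.42) lower. In ribosome biogenesis 16 of 52 tested members were called higher and 13 lower (median log2 fold change 0.20). There TAF1D (2.24), TAF1A (1.92) and GNL2 (1.21) rose, and POLR1A, the large subunit of RNA polymerase I, fell (-1.58). Of the proteasome, 15 of 46 tested members were called higher and 4 lower (median log2 fold change 0.16); 9 were called higher without DMSO replicate 3, and with library size alone 9 were higher and 8 lower. The immunoproteasome gene PSMB9 (1.54), the activator gene PSME2 (0.92), PSMD8 (1.06) and PSMD4 (0.94) rose.

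Sterol genes were divided: 12 of 26 tested members were called higher and 7 lower (median log2 fold change 0.28). MSMO1 rose from 232, 239 and 219 CPM to 755, 834 and 761 CPM (log2 fold change 1.77 ± 0.10 (SE), edgeR adjusted p = 2.6e-10), and STARD4 (1.48), INSIG1 (1.26), FDFT1 (1.26) and HMGCS1 (0.78) rose. LSS (-1.02) and FDPS (-0.77), enzymes of the same route, fell. In cholesterol export 3 of 11 tested members were called higher and 2 lower (median log2 fold change 0.27), with MYLIP, a ubiquitin ligase (3.37), and ABCG1 (1.21) higher, and SOAT1 of cholesterol esterification (-1.44) and NR1H3 (-0.78) lower. In fatty acid synthesis 8 of 30 tested members were called higher and 7 lower (median log2 fold change 0.07), the median turning to -0.07 and the falls becoming 11 with library size alone. There ELOVL6 (-1.31), ACSL1 (-1.19) and ACLY (-0.76) fell. In fatty acid oxidation 5 of 29 tested members were called higher and 10 lower (median log2 fold change -0.17). CPT2, of the carnitine shuttle, fell from 14.8, 13.9 and 13.3 CPM to 3.58, 2.86 and 3.14 CPM (log2 fold change -2.13 ± 0.18 (SE), edgeR adjusted p = 2.6e-08). CPT1C (2.32), the lipid droplet coat gene PLIN2 (1.24) and PPARG (0.91) rose.

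Genes of DNA replication and of mitosis differed. In origin licensing and firing 4 of 29 tested members were called higher and 18 lower (median log2 fold change -0.42). MCM3, of the replicative helicase, fell from 377, 345 and 336 CPM to 171, 180.2 and 188 CPM (log2 fold change -0.97 ± 0.10 (SE), edgeR adjusted p = 1.7e-07), and GINS4 (-1.43), CDC45 (-0.99) and CDC6 (-0.68) fell. CDT1 (1.35) and DBF4 (1.17) rose. Of DNA polymerases and their clamp, 9 of 37 tested members were called higher and 14 lower (median log2 fold change -0.11), the 9 rises becoming 3 without DMSO replicate 1 or ML355 replicate 1, 4 without DMSO replicate 3 or with library size alone, and 5 without DMSO replicate 2. UHRF1, which maintains DNA methylation, lay at 106, 98.8 and 103 CPM with DMSO and 24.6, 24.1 and 28 CPM with ML355 (log2 fold change -2.0 ± 0.11 (SE), edgeR adjusted p = 1.4e-10). In nucleotide synthesis 8 of 36 tested members were called higher and 14 lower (median log2 fold change -0.23), with SAMHD1, which degrades dNTPs, lower (-2.42) and IMPDH2 of guanine nucleotides higher (2.10). In homologous recombination 10 of 39 tested members were called higher and 9 lower (median log2 fold change 0.05); without DMSO replicate 1, 2 or 3 the rises were 5, 6 and 4, and with library size alone 5 were higher and 14 lower, with a median of -0.08. XRCC2 (-2.31), BRIP1 (-1.45) and FANCI (-0.76) fell, and FANCE rose (1.26).

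At the spindle and kinetochore 22 of 54 tested members were called higher and 9 lower (median log2 fold change 0.17); 5 were lower without DMSO replicate 1. CDC20, an activator of the anaphase-promoting complex, rose from 108, 105.2 and 113 CPM to 419, 332 and 433 CPM (log2 fold change 1.86 ± 0.11 (SE), edgeR adjusted p = 4.2e-10). KIFC1 (1.48) and AURKB (1.40) rose, and CENPI fell (-1.57). Among cyclins and their inhibitors 12 of 41 tested members were called higher and 15 lower (median log2 fold change 0.00). CDKN2D, an inhibitor of CDK4 and CDK6, rose from 3.48, 4.14 and 2.34 CPM to 25.1, 26.9 and 36.9 CPM (log2 fold change 3.16 ± 0.21 (SE), edgeR adjusted p = 2.4e-09), and CCNA2 (1.30) and CDK1 (1.08) rose. CCND1 (-0.92), CDK6 (-0.72), E2F2 (-1.29) and E2F3 (-1.40) fell. Histone genes of the replication-dependent clusters leaned upward: 15 of 26 tested members were called higher and 3 lower (median log2 fold change 1.10). H2BC21 was at 15, 17 and 15.1 CPM with DMSO and 434, 267 and 368 CPM with ML355 (log2 fold change 4.50 ± 0.17 (SE), edgeR adjusted p = 7.9e-11). H2AC6 (1.01) and H2BC11 (2.19) rose, and H4C8 fell (-2.30). Only 26 of the 59 histone genes listed passed the filter, and most mRNAs of this class end without a poly(A) tail.

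Genes of the extracellular matrix and its receptors mostly fell: 4 of 41 tested members were called higher and 25 lower (median log2 fold change -0.73); 2 were higher without DMSO replicate 1 or with library size alone. TIMP3, an inhibitor of metalloproteases, lay at 433, 420.3 and 439.6 CPM in the DMSO libraries and 95.4, 89.3 and 93.5 CPM in the ML355 libraries (log2 fold change -2.22 ± 0.10 (SE), edgeR adjusted p = 1e-11). The collagen receptor genes ITGA2 (log2 fold change -2.23 ± 0.11 (SE), edgeR adjusted p = 4.3e-11) and ITGA1 (-2.07) and TIMP2 (-1.71) fell too. Fibroblast markers moved with this list: the 5 tested (COL1A1, COL3A1, DCN, LUM and FAP) were all called lower, COL1A1 not without DMSO replicate 3 (edgeR adjusted p = 0.011), and the summed level of the 9 markers examined was 357 to 378 CPM with DMSO and 118 to 128 CPM with ML355. PDGFRA had 0 counts, and COL1A2 and THY1 at most 3, in every library. The endothelial markers PECAM1 (149 counts in all with DMSO and 5 with ML355) and CDH5 (-3.78) were called lower, EGFL7 (0.04, edgeR adjusted p = 0.83) was not called and KDR had 0 counts. The summed level of the 7 endothelial markers overlapped between groups, at 70.8 to 83.5 CPM with DMSO and 51.2 to 86.0 CPM with ML355. The source of these marker RNAs in cultures of a cell line was not tested. Of targets of YAP and TEAD, 6 of 26 tested members were called higher and 14 lower (median log2 fold change -0.40), with CRIM1 (-1.62), AMOTL2 (-1.40) and TGFB2 (-2.52) lower and TEAD4 higher (1.16). Of TGF-β and BMP genes, 4 of 27 tested members were called higher and 13 lower (median log2 fold change -0.32); the 4 rises became 2 without DMSO replicate 1 or 3 and 1 without DMSO replicate 2. LTBP1 (-2.51), SMAD6 (-2.15), the receptor genes BMPR1A (-1.52) and TGFBR1 (-1.58) fell. In retinoic acid signalling 3 of 16 tested members were called higher and 10 lower (median log2 fold change -0.70), with the receptor gene RARB reduced from 32 to 55 counts per DMSO library to 0 in each ML355 library, and ALDH1A2 (-2.85), RDH10 (-1.52) and TGM2 (-0.69) lower.

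Epithelial and squamous genes were mixed. In the squamous list 6 of 17 tested members were called higher and 6 lower (median log2 fold change 0.03), the median turning to -0.12 with library size alone, and 17 of its 34 members were too low to be tested. KRT17 rose from 963, 1001 and 961 CPM to 4986, 3272 and 4935 CPM (log2 fold change 2.17 ± 0.15 (SE), edgeR adjusted p = 3.3e-09) and KRT16 from 7.09, 9.37 and 7.09 CPM to 35.3, 27 and 29 CPM (log2 fold change 1.96 ± 0.16 (SE), edgeR adjusted p = 1.5e-08). PERP, of desmosomes, fell (-1.59), as did JUP (-0.75), and GRHL1 rose (1.61). The simple keratin genes KRT8 (-0.67) and KRT18 (-0.98) fell, and KRT7 (-0.20, edgeR adjusted p = 0.13) and KRT80 (-0.02, edgeR adjusted p = 0.87) did not pass. Of the cornified envelope, 3 of 9 tested members were called higher and 4 lower (median log2 fold change -0.37), with PPL (-1.10) and PI3 (-1.84) lower. CSTA, a protease inhibitor, had 1, 0 and 4 counts in the DMSO libraries and lay at 3.94, 3.45 and 3.63 CPM with ML355, and it was called higher. In the list of adhesion and mesenchymal transition 8 of 25 tested members were called higher and 5 lower (median log2 fold change 0.06), the median turning to -0.08 and the falls becoming 8 with library size alone. SNAI1, a repressor of epithelial genes, rose from 3.19, 3.76 and 3.80 CPM to 22.4, 23.7 and 20.5 CPM (log2 fold change 2.63 ± 0.16 (SE), edgeR adjusted p = 5.9e-10), and the tight junction gene TJP3 fell (-2.96). Of the 8 epithelial markers examined, CDH1 had at most 9 counts in any library, and KRT19 and ESRP1 at most 3. The 5 epithelial markers tested were divided, with 2 called higher and 2 lower. CGA, the common subunit of glycoprotein hormones, was the only nuclear gene among the 8 largest losses of read counts, from 3589.7, 3249 and 2991 CPM to 391, 293 and 428 CPM (log2 fold change -3.14 ± 0.15 (SE), edgeR adjusted p = 2.8e-11).

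Cytokines and regulators of NF-κB mostly rose: 26 of 39 tested members were called higher and 8 lower (median log2 fold change 0.97). Inhibitors that NF-κB induces were among them, with NFKBIA at 90.8, 98.3 and 109 CPM in the DMSO libraries and 737, 405 and 738 CPM in the ML355 libraries (log2 fold change 2.66 ± 0.22 (SE), edgeR adjusted p = 5.4e-06) and NFKBIE at 20.7, 23.5 and 20.8 CPM with DMSO and 100.1, 93.9 and 93.4 CPM with ML355 (log2 fold change 2.14 ± 0.11 (SE), edgeR adjusted p = 7.5e-11). RELB, a subunit of the factor, rose (2.27). TNF had at most 6 counts in any DMSO library and lay at 6.71, 4.75 and 5.85 CPM with ML355. Of the secreted factors, IL1A (2.21), IL1B (2.65), LIF (1.86) and CXCL3 (2.66) rose, whereas IL6 fell from 29.6, 31.6 and 31.8 CPM to 8.55, 7.44 and 8.02 CPM (log2 fold change -1.95 ± 0.14 (SE), edgeR adjusted p = 2.2e-09) and IL11 (-2.87), CXCL10 (-2.83) and CXCL1 (-1.67) fell. Of interferon response genes, 18 of 47 tested members were called higher and 13 lower (median log2 fold change 0.29). IRF1 (log2 fold change 2.70 ± 0.12 (SE), edgeR adjusted p = 1.2e-11), IRF7 (2.49) and the DNA sensor gene CGAS (1.33) rose, and RIGI, an RNA sensor, fell (-1.68). In antigen presentation 13 of 29 tested members were called higher and 4 lower (median log2 fold change 0.37); 8 were higher without DMSO replicate 1. PVR (1.71), HLA-F (1.85), MICA (1.82) and HLA-E (1.33) rose. The leukocyte marker PTPRC lay at 1.12, 1.80 and 0.677 CPM with DMSO and 2.56, 3.83 and 2.28 CPM with ML355 (log2 fold change 1.27 ± 0.37 (SE), edgeR adjusted p = 0.0065), and it lost its call without DMSO replicate 1 or 3 or ML355 replicate 1 or 2 (edgeR adjusted p = 0.011 to 0.043). The summed level of 12 leukocyte markers was 1.93 to 3.05 CPM with DMSO and 3.23 to 4.48 CPM with ML355, and CD2, CD68, MS4A1, LYZ and TYROBP had 0 counts.

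Clock genes leaned upward: 11 of 21 tested members were called higher and 1 lower (median log2 fold change 0.78). BHLHE40, a repressor of the clock, was at 125, 109 and 136 CPM in the DMSO libraries and 1638, 1095 and 1585 CPM in the ML355 libraries (log2 fold change 3.54 ± 0.16 (SE), edgeR adjusted p = 4.2e-11). PER1 was at 26.5, 28.2 and 31.9 CPM with DMSO and 256, 244 and 324 CPM with ML355 (log2 fold change 3.25 ± 0.13 (SE), edgeR adjusted p = 3.8e-12). NR1D1 (2.39) and CRY2 (2.08) rose, and the activator gene BMAL1 was called lower (log2 fold change -0.43 ± 0.12 (SE), edgeR adjusted p = 0.0062). The call of BMAL1 was lost without any 1 library except ML355 replicate 2. In glucose transport and glycolysis 8 of 30 tested members were called higher and 8 lower (median log2 fold change 0.11), the median turning to -0.03 with library size alone. SLC2A6 fell from 88.5, 97.9 and 91.2 CPM to 6.76, 6.04 and 7.59 CPM (log2 fold change -3.77 ± 0.13 (SE), edgeR adjusted p = 8.4e-13), and SLC2A3 (1.76), ALDOC (1.69) and ARRDC4 (3.52) rose. Of Notch genes, 10 of 25 tested members were called higher and 7 lower (median log2 fold change 0.27), with HES1 higher (log2 fold change 2.99 ± 0.18 (SE), edgeR adjusted p = 1.5e-08) and NOTCH3 (-1.92), MAML2 (-1.83) and MAML3 (-2.68) lower. In the neurotrophin list 3 of 8 tested members were called higher and 5 lower (median log2 fold change -0.83), the 5 falls becoming 3 without DMSO replicate 3. Beside NGFR, the ligand gene BDNF (-1.37) and the sortilin receptors SORT1 (-0.92) and SORCS2 (-2.31) were lower. Of targets of the aryl hydrocarbon receptor and other xenobiotic sensors, 4 of 13 tested members were called higher and 5 lower (median log2 fold change -0.57). VDR (-2.36) and AHRR (-1.55) fell, and TIPARP (1.31) and CYP1B1 (0.64) rose.

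In metal and iron handling, 4 of 7 tested members were called higher and 1 lower (median log2 fold change 0.46) among metallothioneins and zinc transporters, and 8 of 24 tested members were called higher and 7 lower (median log2 fold change 0.14) among genes of iron and ferroptosis. MT2A (1.08), MT1X (3.45) and MTF1 (0.74) rose and the zinc importer gene SLC39A10 fell from 125, 111 and 119.5 CPM to 24.2, 24.3 and 19.7 CPM (log2 fold change -2.38 ± 0.12 (SE), edgeR adjusted p = 4.2e-11). SAT1, of polyamine breakdown, rose from 359, 386 and 333 CPM to 1417, 1346 and 1354 CPM (log2 fold change 1.93 ± 0.11 (SE), edgeR adjusted p = 1.6e-10), and TFRC, the transferrin receptor (-0.97), and STEAP3 (-1.31) fell. In autophagy 17 of 55 tested members were called higher and 13 lower (median log2 fold change 0.11), the median turning to -0.03 with library size alone. GABARAPL1 (1.46), CALCOCO2 (1.23) and OPTN (1.31) rose, and the lysosomal channel gene MCOLN1 fell (-1.75). Of ubiquitin-specific proteases, 9 of 46 tested members were called higher and 8 lower (median log2 fold change -0.03); without DMSO replicate 3, 5 were lower, and with library size alone 15. Among the 8, USP6NL (-0.83), encodes a GTPase-activating protein for RAB proteins and is no protease. USP4 (1.53) and USP25 (1.45) rose and USP13 fell (-1.27). Of the cytoskeleton, 12 of 31 tested members were called higher and 5 lower (median log2 fold change 0.21), the 5 falls becoming 3 without DMSO replicate 1 or 3. TUBB2A (1.55) and FLNA (0.81) rose, and TUBA1A (-1.31) and CALD1 (-1.11) fell. Among restriction factors of L1 elements 5 of 24 tested members were called higher and 6 lower (median log2 fold change -0.14); the 5 rises became 3 without DMSO replicate 1, and with library size alone 3 were higher and 10 lower. TASOR (-1.34) and PPHLN1 (-1.43), both of the HUSH silencing complex, fell. Zinc finger genes leaned downward: 79 of 391 tested members were called higher and 138 lower (median log2 fold change -0.25). ZNF302 (-3.21), ZNF629 (-3.47), ZNF469 (-3.08) and ZNF689 (-2.98) had the smallest adjusted p.

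**Figure D4:**
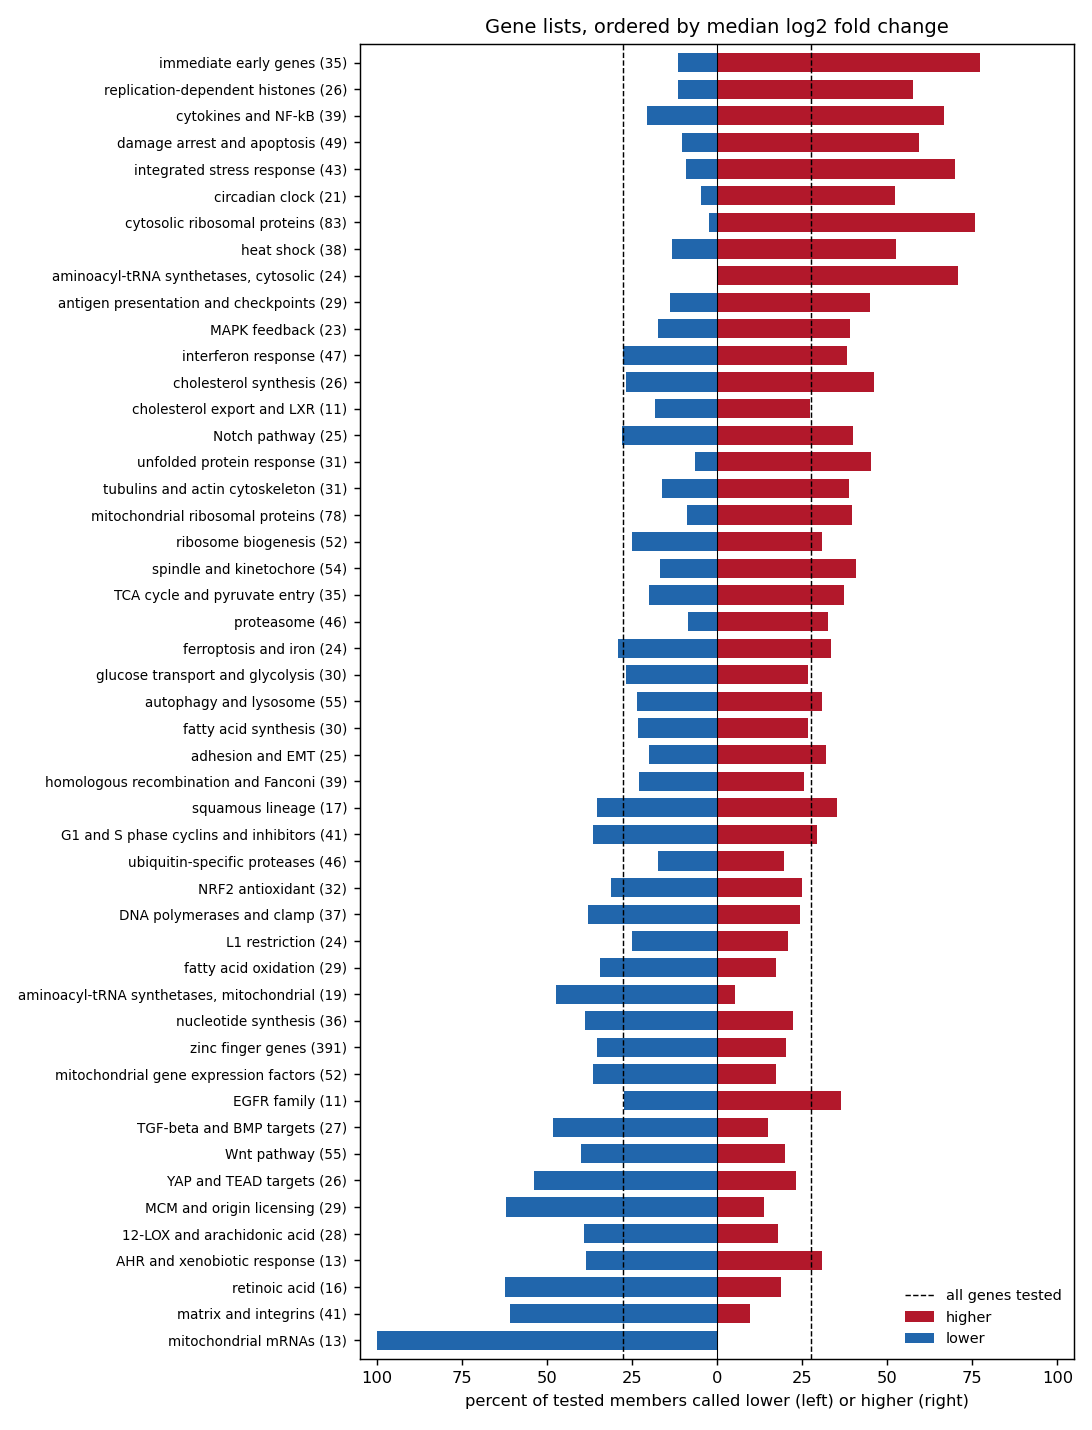
Bars give the percent of tested members of each list called higher (right, red) and lower (left, blue), with the number of members tested in brackets and lists of fewer than 10 left out. Dashed lines mark the shares among all genes tested, 27.6% higher and 27.8% lower; lists run from immediate early genes at the top to mitochondrial mRNAs at the bottom by median log2 fold change.

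Calls differed with the length of the gene. Nuclear protein-coding genes tested (12291) were divided into 10 bins of equal size by their span from first to last base in GENCODE 44. In the bin of shortest genes (0.387 to 5.99 kb), 36.8% were called higher and 21.5% lower, with a median log2 fold change of 0.25. In the bin of longest genes (164 to 2299 kb), 16.6% were higher and 40.2% lower, with a median of -0.33. From the sixth bin to the longest, each step had a lower share called higher and a larger share called lower. The median level was similar in both extremes, 23.1 and 22.5 CPM. Summed exon length gave a smaller contrast in the longest bin, with 20.9% higher and 34.5% lower. No test was made, since genes are not replicates. Among other classes, 15 of 24 tested small nucleolar RNA genes were called higher and 1 lower, and of 1488 long non-coding RNA genes 348 were higher and 409 lower.

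**Figure D5:**
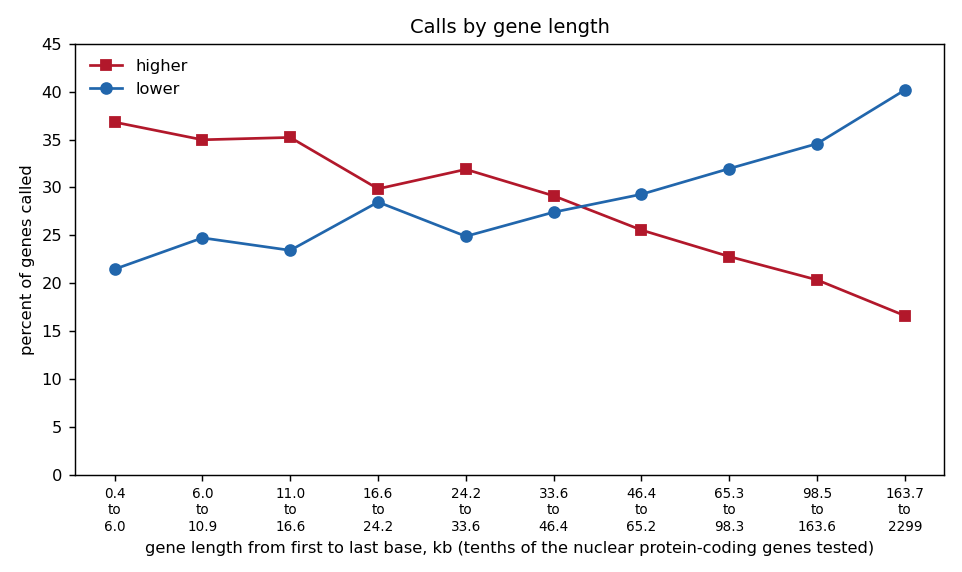
The horizontal axis gives 10 bins of equal size of the 12291 nuclear protein-coding genes tested, by gene length in kb, and the vertical axis the percent called higher (squares, red) or lower (circles, blue). The lines cross in the middle bins, from 36.8% against 21.5% in the shortest genes to 16.6% against 40.2% in the longest.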

How the data were processed

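RNA sequencing of NCI-H520 cells was analysed from the table of raw counts deposited by the authors, who aligned reads to hg38 with STAR 2.5.3a and counted them per gene with HTSeq 0.11.2. The annotation release and strand setting are not given in the sources used here. The labels and the methods name different library kits. Groups came from the labels. Genes were filtered with filterByExpr over the 6 libraries, scaled by TMM and tested with edgeR 4.0.16 (R 4.3.3; robust glmQLFit, glmQLFTest). Calls used a Benjamini-Hochberg adjusted p under 0.01 over all 14841 genes tested. A DESeq2 1.42.0 test, limma 3.58.1 voom, other scalings and filters, a fit of all 12 libraries, a replicate block and each library left out were alternatives. Tested on simulated data, where 200 of 14841 genes had a log2 change of 1, edgeR recovered 76.5% with 1 false call. The simulated libraries were independent and few of their genes changed, whereas 55.3% of genes were called here. These rates therefore do not carry over to this comparison.

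The members and lists were chosen with earlier results of these data known. Named genes were the study's genes, the 10 largest rises and falls with at least 10 counts in every library, and the 5 largest of each direction where 1 group had at most 3 counts per library. They also included the 8 largest gains and losses of mean CPM, up to 4 members of each list with the smallest adjusted p plus members needed for its roles, and all mitochondrial RNAs. CPM used library sizes scaled by TMM (16933806 to 19528107), which put 3 counts at 0.154 to 0.177 CPM. Gene lengths and classes came from GENCODE 44, matched to 57532 of 58302 identifiers. Some members of these lists are not reported here.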

Additional observations from a re-analysis of the deposited data

How the results depend on the processing

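The 8210 calls were between 6921 and 8616 when each library was left out in turn (3351 to 4332 higher, 3555 to 4284 lower), and no gene called in both fits changed direction. A minimum size of 1 on the log2 scale left 4231 genes, 1853 higher and 2378 lower. With library size alone the split was 3246 higher and 4810 lower, and the median of all genes was -0.14. The medians of several lists near 0 changed sign there: fatty acid synthesis, G1 and S phase cyclins, homologous recombination, autophagy, squamous lineage, adhesion and glycolysis. With a replicate block, 7604 genes were called, 3775 higher and 3829 lower. Samples that share a number did not deviate together (correlations of -0.045, -0.061 and -0.076 across genes). The labels do not say what a number marks, and the main fit used no pairing. A tally was made of 252 tested genes, without the members added to describe the roles in a list. Among these 252, TCF7L2, KLF3-AS1 and TGFA lost their call under at least 1 alternative, and ALOX5 and KRT7 gained it. None of the 252 was reversed under any of the alternatives run. Of other genes described above, EIF2AK1, BMAL1, PTPRC and COL1A1 lost their call when certain libraries were left out. HSPA1A, HSPA1B, HSPA6 and FTH1 gained theirs in such fits. The cause was not tested. Limits are 3 libraries a group whose independence is not stated, 1 concentration and 1 unstated time, and no library of ML355 without L1-FGGY in this comparison. Genes with few counts, among them ALOX15 and GPR31, cannot be read at this depth.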
